A study of Mus musculus with 9 samples.

Results

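The 3 Zbtb18-ES libraries were set directly against the 3 Foxj3-ES libraries, so 6 of the 9 libraries of the series carry the comparison. The 3 Control libraries served to tell which line had departed from wild type for each gene that differed. All groups were undifferentiated J1 cells, a mouse embryonic stem cell (ESC) line kept on LIF with no feeder layer. Zbtb18-ES and Foxj3-ES had been made to express Zbtb18 or Foxj3 stably with a lentivirus, and the Control cells were labelled wild type. The methods speak in general of independent experiments, but neither they nor the labels say for these libraries whether a line was 1 clone, whether the Control cells carried an empty vector, or whether separate cultures gave the 3 libraries of a group. A p-value therefore speaks only of the spread between these libraries. The values were UQRPKM, read counts per transcript length and library size that were then divided by an upper quartile. Differences were taken on log2(UQRPKM + 1), which understates those of low values, and 22268 of 44788 genes with a UQRPKM of 1 or more in at least 3 of the 9 libraries were tested with limma in 1 fit.

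Zbtb18 (also called RP58 or Zfp238) is a zinc finger protein of the BTB family that is best known as a transcriptional repressor in the developing cortex and in muscle. It binds a form of the E-box. Foxj3 is a forkhead factor that has been described in muscle and in spermatocytes. The study looked at both as targets of a neural microRNA, miR-219, and a direct comparison of the lines asks which genes separate them. Naive ESCs are held by LIF, Wnt and core factors such as Oct4, and single cultures are known to vary in genes of the 2-cell stage and in imprinted genes.

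The DNA at the start of genes that separated the lines is shown first, because both proteins act on DNA. The promoters are 300 bases from RefSeq on GRCm38.p6, from 250 bases before to 50 after a transcript start, and are written 5′ to 3′ on the strand of the gene. The first RefSeq entry of each gene was taken, whose start need not be the outer end of the gene, and in Fam25c and Hnf4a it lies inside the span given below. Capitals mark the forkhead core TGTTTA in Hnf4a, which stood higher in Zbtb18-ES, and the E-box form CAGATG or its other strand CATCTG in Fam25c, which also stood higher, and in Nifk and Tmem9, which stood lower.
Hnf4a, chr2:163506607-163506906, + strand: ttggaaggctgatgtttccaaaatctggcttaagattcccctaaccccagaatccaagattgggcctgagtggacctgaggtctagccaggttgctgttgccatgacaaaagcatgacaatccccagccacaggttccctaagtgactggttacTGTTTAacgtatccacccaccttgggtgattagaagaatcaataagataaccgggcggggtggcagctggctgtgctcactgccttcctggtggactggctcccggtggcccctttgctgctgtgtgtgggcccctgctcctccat
Fam25c, chr14:34355344-34355643, - strand: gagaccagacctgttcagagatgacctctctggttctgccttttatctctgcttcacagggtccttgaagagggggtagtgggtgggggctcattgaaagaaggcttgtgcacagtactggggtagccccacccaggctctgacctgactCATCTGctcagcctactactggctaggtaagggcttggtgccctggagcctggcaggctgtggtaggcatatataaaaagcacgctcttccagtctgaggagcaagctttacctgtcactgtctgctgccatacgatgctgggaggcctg
Nifk, chr1:118321593-118321892, + strand: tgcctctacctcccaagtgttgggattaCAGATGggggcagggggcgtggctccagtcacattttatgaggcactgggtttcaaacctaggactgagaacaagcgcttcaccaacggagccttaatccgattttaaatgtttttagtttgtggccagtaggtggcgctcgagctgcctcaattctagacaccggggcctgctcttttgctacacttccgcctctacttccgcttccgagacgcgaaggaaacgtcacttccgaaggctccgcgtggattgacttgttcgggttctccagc
Tmem9, chr1:136007969-136008268, + strand: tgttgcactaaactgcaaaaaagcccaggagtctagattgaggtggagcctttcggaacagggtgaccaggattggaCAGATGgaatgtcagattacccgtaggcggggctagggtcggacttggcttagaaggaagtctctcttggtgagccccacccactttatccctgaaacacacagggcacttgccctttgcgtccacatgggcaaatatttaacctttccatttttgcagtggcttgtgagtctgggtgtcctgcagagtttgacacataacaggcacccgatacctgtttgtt

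The 4 promoters do not stand for a rule. Searched on both strands, CAGATG was found in 3 of the 28 promoters held for the 65 genes that were higher in Zbtb18-ES (10.7%) and in 6 of the 39 held for the 56 genes that were lower (15.4%), against 1432 of 12217 promoters of all genes tested (11.7%). TGTTTA was found in 4 of 28 (14.3%) and in 3 of 39 (7.69%), against 1019 of 12217 (8.34%). Such matches are letters in a window and not sites of binding. The small nucleolar RNA Snord73a is shown because it was read in every Zbtb18-ES library and listed at 0 in every Foxj3-ES library. On an RNA this short few reads make a high UQRPKM, and the number of reads is not known. Its values in Control alone ran from 14.4 to 88.7. The Snord73a sequence of 68 bases in GENCODE M21 has the box C motif TGATGA and the box D motif CTGA in capitals, by which this class guides the methylation of ribosomal RNA.
Snord73a, chr3:86138791-86138858, - strand: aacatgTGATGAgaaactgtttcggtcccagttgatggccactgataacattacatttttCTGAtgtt

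The libraries of the lines were of like estimated depth, but the libraries of 1 line were not alike. The number of reads is not given, so depth was estimated from ratios of low UQRPKM values and the summed UQRPKM. Relative to the deepest, this estimate was 76.1 to 100% in Zbtb18-ES, 75.6 to 90.8% in Foxj3-ES and 79.9 to 88.2% in Control. Correlations of log2 values across genes were 0.958 to 0.962 within Zbtb18-ES, 0.954 to 0.957 within Foxj3-ES and 0.945 to 0.957 between the lines. The summed UQRPKM of the ESC markers Pou5f1, Sox2, Nanog, Zfp42 and Utf1 was 23193 to 26607 in Zbtb18-ES, 23610.1 to 25159 in Foxj3-ES and 21993 to 24714 in Control, mostly from Pou5f1. Each marker was read in every library, so the label of ESCs held in all. Every line library lay above every Control library in Pou5f1 and below in Sox2 and Nanog. Nanog had 1062 to 1345 in Zbtb18-ES, 683 to 1005 in Foxj3-ES and 1965 to 2591 in Control. For GC content, each mRNA was taken on the log2 scale relative to its own mean over the 9 libraries. The median of the top GC decile minus that of the bottom was 0.97 in Control replicate 2 and -0.49 to 0.19 in the other libraries.

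Zbtb18-ES replicates 1 and 2 differed at least 4-fold in 33 mRNAs with a UQRPKM of at least 100 in the higher of them, and replicate 3 lay between them in all 33. Measured from replicate 2 (position 0) to replicate 1 (position 1) on the linear scale, replicate 3 stood at a median position of 0.534, with quartiles of 0.459 and 0.678. The same search found 13 mRNAs between Foxj3-ES replicates 1 and 2, with replicate 3 between them in 9, and 14 between Control replicates 1 and 2, with replicate 3 between them in 12. This measure was chosen after the values were seen, and genes picked for a wide gap will often have the third library inside it. Bmp4 had 181, 822 and 368 in Zbtb18-ES, the neurofilament gene Nefm 9.27, 163 and 67.4 and the imprinted gene Grb10 191, 16.4 and 96.3. The noncoding RNA genes Meg3, Rian and Mirg of an imprinted cluster were also lowest in replicate 1, highest in replicate 2 and between them in replicate 3. Meg3 had 1.16, 79.3 and 37.1 in Zbtb18-ES, against 144, 129.5 and 84.5 in Foxj3-ES and 164, 132 and 152 in Control. Eif2s3y on the Y chromosome had 18.6, 296 and 231 in Zbtb18-ES, against 497, 548 and 3.08 in Foxj3-ES and 433, 277 and 367 in Control, so Zbtb18-ES replicate 1 and Foxj3-ES replicate 3 were the low libraries. Ddx3y, also on the Y chromosome, had 3.11, 63.2 and 37.4 in Zbtb18-ES, against 16.1, 120.5 and 1.17 in Foxj3-ES and 116, 62.1 and 116 in Control. Whether Zbtb18-ES replicate 3 is independent of replicates 1 and 2 was not tested. Results without it are given for the count of genes that differed, for the windows and for single genes. The departures from Control, the promoter counts, the list counts and the counts of genes without overlap also rest on it. They are not given without it.

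Neither targeted transcript passed the test between the lines. Zbtb18 (chromosome 1 of GRCm38, from 177442351 to 177450764) had 34.9, 129 and 56.97 in Zbtb18-ES, against 38.2, 40.8 and 36.5 in Foxj3-ES and 46.4, 65.4 and 48.997 in Control. Only Zbtb18-ES replicates 2 and 3 stood above every Foxj3-ES library, and the log2 difference was 0.71 (SE 0.39, adjusted p = 0.403). It was 0.21 without Zbtb18-ES replicate 2. An exact two-sided permutation test of the 6 libraries gave p = 0.4, where 3 against 3 allow no p below 0.1. Foxj3 (chromosome 4 of GRCm38, from 119539661 to 119629119) had 94.001, 87.6 and 105 in Zbtb18-ES, against 119, 168 and 177 in Foxj3-ES and 124, 145 and 115 in Control. The lines did not overlap, with a log2 difference of -0.67 (SE 0.18, adjusted p = 0.123) and an exact permutation p of 0.1. Against Control, Foxj3 stood at 0.26 in Foxj3-ES and -0.42 in Zbtb18-ES (limma, adjusted p = 0.388 and 0.175). Zbtb18 stood at 0.26 in Zbtb18-ES and -0.45 in Foxj3-ES (adjusted p = 0.715 and 0.48). Neither gene thus passed against Control in the line that bears its name. The values cover the whole gene, in which the coding sequence that the virus brought cannot be told apart from the cell's own transcript. The names of the lines therefore stand for libraries so labelled.

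Between the lines 121 genes differed at least 2-fold with an adjusted p under 0.05, which is 0.543% of the genes tested. Of these, 65 were higher (0.292%) and 56 were lower (0.251%) in Zbtb18-ES. By the adjusted p alone, 73 genes were higher (0.328%) and 80 lower (0.359%). The median difference of all genes was -0.02 on the log2 scale, and 52.0% of the genes stood lower. After rescaling all libraries to equal sums, that median moved to 0.16 and the split became 117 higher and 36 lower. The count fell to 53 when Zbtb18-ES replicate 2 was left out and to 27 when its replicate 3 was, and it was 66 without Control replicate 3. Leaving out Foxj3-ES replicate 1 gave 34 and leaving out replicate 2 of that line gave 22. It was 107 without Foxj3-ES replicate 3 and 185 without Control replicate 2. Without Zbtb18-ES replicate 3, 22 of the 121 genes were among the 27. With each of the 9 libraries left out in turn, 17 genes passed every time. Those that were higher were Snord73a, Hnf4a, Msln, Xaf1, Gm807, Neat1, Gpa33, Jam2, Fam25c and Manba. Among those that were lower were Tsn, Nifk, Tmem9, Slc38a4, Dbi and Tmem37.

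Set against Control in the same fit, most of the 121 genes passed in 1 line and not in both. A line that did not pass need not have stayed at wild type. Tmem37, for example, stood at 0.59 in Foxj3-ES with limma's adjusted p at 0.0555. At an adjusted p under 0.05, a threshold that 11.8% of all genes passed in Zbtb18-ES against Control and 14.6% in Foxj3-ES against Control, 55 of them departed in Zbtb18-ES alone, 29 of which were higher and 26 lower than in Foxj3-ES. Another 44 departed in Foxj3-ES alone, 25 of them higher and 19 lower in Zbtb18-ES. Both lines departed in opposite directions for 7 genes and in the same direction for 6, and neither passed for 9. A gene that differed between the lines had to differ from Control in at least 1 of them by a good part of that distance, so these counts describe the genes and are no test of the lines. Symbols of predicted genes, clones, pseudogenes, tRNAs or miRNAs accounted for 25 of the 65 genes above and 11 of the 56 genes below. Their share over all genes tested was not counted, so no excess can be read from this. By gene type, 87 of the 121 genes were typed as mRNA, against 15049 of the 22268 genes tested.

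**Figure D1:**
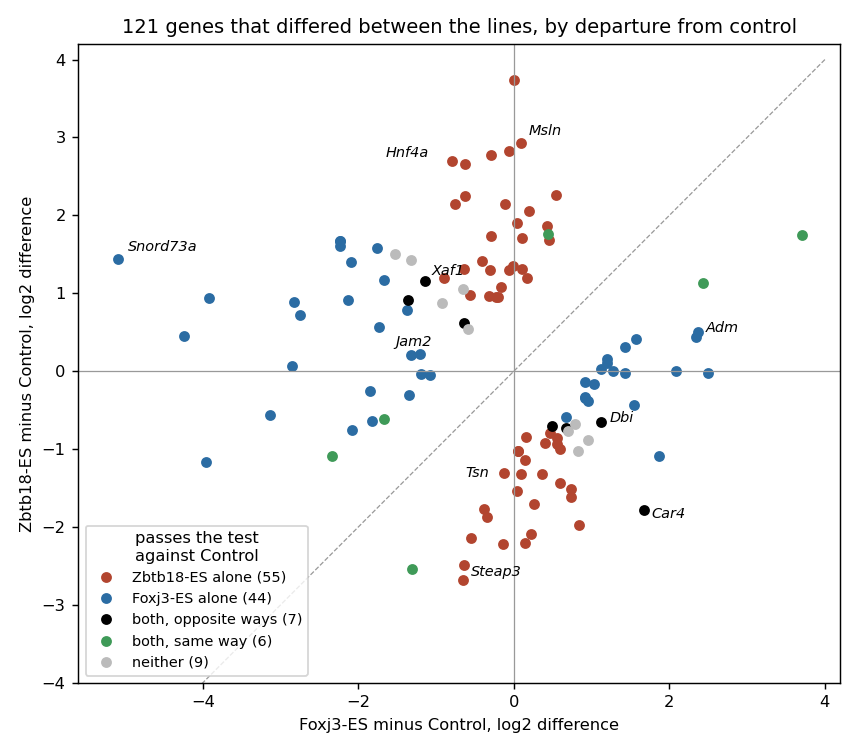
Each point is 1 of the 121 genes that differed between the lines, with the log2 difference of Foxj3-ES minus Control on the horizontal axis and of Zbtb18-ES minus Control on the vertical axis, coloured by which line passed the test against Control (55 in Zbtb18-ES alone, 44 in Foxj3-ES alone, 7 in both in opposite ways, 6 in both the same way, 9 in neither). The dashed line marks equal departure; points near the vertical axis, such as Msln and Tsn, moved in Zbtb18-ES, and points near the horizontal axis, such as Jam2 and Adm, in Foxj3-ES.

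Msln, Neat1, Gpa33 and Fam25c were higher in Zbtb18-ES through a rise in that line, and held with each library left out in turn. Msln, which encodes the surface protein mesothelin (chromosome 17 of GRCm38, from 25748613 to 25754378), had 469.9, 404 and 393 in Zbtb18-ES, against 53.9, 39.8 and 91.5 in Foxj3-ES and 52.8, 64.9 and 47.04 in Control. No library of Zbtb18-ES came near the other 2 groups, with a log2 difference between the lines of 2.83 (SE 0.27, adjusted p = 0.00207). Neat1, the long noncoding RNA that builds paraspeckles (chromosome 19 of GRCm38, from 5824708 to 5845480), had 2753, 2211 and 2319 in Zbtb18-ES, against 523, 608 and 660.5 in Foxj3-ES and 713, 711 and 761 in Control. The lines differed by 2.02 (SE 0.13, adjusted p = 0.000615) on the log2 scale, and against Control Zbtb18-ES was higher by 1.73 (adjusted p = 0.000255) while Foxj3-ES gave -0.29 (adjusted p = 0.179). Gpa33, which encodes an antigen of gut epithelium (chromosome 1 of GRCm38, from 166130221 to 166166510), had 1038, 749.6 and 826 in Zbtb18-ES, against 259, 213 and 241 in Foxj3-ES and 206, 273 and 216 in Control. Foxj3-ES and Control overlapped, Zbtb18-ES stood apart, and the difference was 1.86 (SE 0.17, adjusted p = 0.00165). Fam25c (chromosome 14 of GRCm38, from 34351882 to 34358339) had 1440.1, 1674 and 1365 in Zbtb18-ES, against 679, 561 and 551 in Foxj3-ES and 423, 458 and 431 in Control. It rose in both lines, by 1.76 in Zbtb18-ES and by 0.44 in Foxj3-ES (adjusted p = 0.000209 and 0.0496), and the lines themselves differed by 1.32 (SE 0.13, adjusted p = 0.0025).

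Hnf4a, a nuclear receptor gene of liver and visceral endoderm (chromosome 2 of GRCm38, from 163506811 to 163572907), had 11.8, 17.8 and 16.3 in Zbtb18-ES, against 0.306, 0.273 and 0.748 in Foxj3-ES and 2.14, 2.02 and 0.593 in Control. The lines did not overlap and differed by 3.49 (SE 0.41, adjusted p = 0.00763) on the log2 scale, and Zbtb18-ES was higher than Control by 2.70 (adjusted p = 0.00484). Of the 7 markers of visceral endoderm 3 were tested and only Hnf4a passed. Their summed UQRPKM was 18.9 to 26.3 in Zbtb18-ES, 2.82 to 34.3 in Foxj3-ES and 3.24 to 8.53 in Control. Ttr was listed at 0 in all 9 libraries, and Foxa2 in all 3 Zbtb18-ES libraries. Afp was above 0 in Zbtb18-ES replicate 2 alone.

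**Figure D2:**
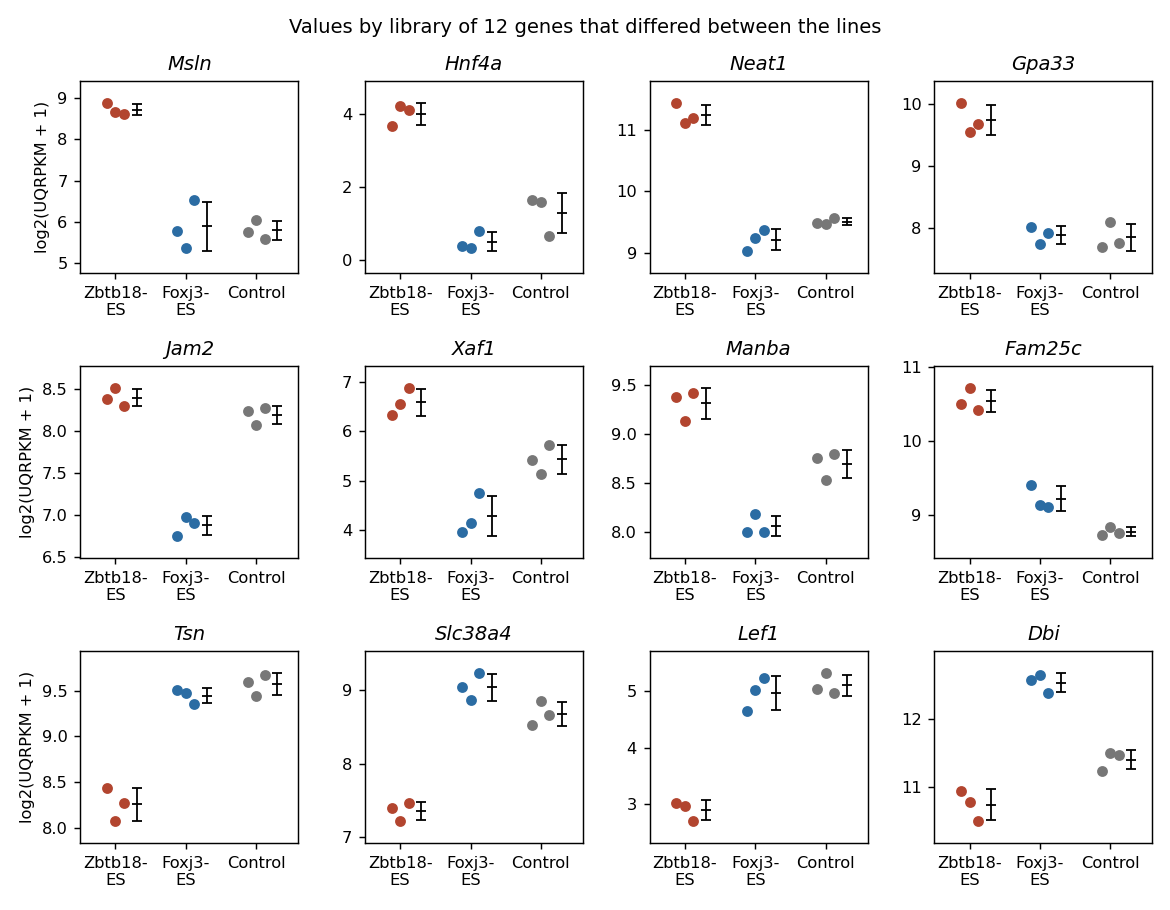
Values of 12 genes on log2(UQRPKM + 1), with 1 point per library, Zbtb18-ES at the left, Foxj3-ES in the middle and Control at the right of each panel, and a bar for the mean ± SD (n = 3) beside the points. Msln, Hnf4a, Neat1 and Gpa33 pass against Control in Zbtb18-ES alone and Jam2 in Foxj3-ES alone. Fam25c lies above Control in both lines, Xaf1, Manba and Dbi lie to opposite sides of Control, and Tsn, Slc38a4 and Lef1 are low in Zbtb18-ES.

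Other genes that rose in Zbtb18-ES and stood above Foxj3-ES did not hold when single libraries were left out. Ceacam20, an adhesion gene of the carcinoembryonic antigen family, had 75.2, 106 and 67.7 in Zbtb18-ES, against 6.90, 7.40 and 19.7 in Foxj3-ES and 10.6, 10.1 and 11.01 in Control, a difference of 2.89 (SE 0.38, adjusted p = 0.0131) that no longer passed without Zbtb18-ES replicate 2 or 3 or Foxj3-ES replicate 1 or 2 (highest adjusted p = 0.0548). H2-Eb1, a beta chain gene of MHC class II, had 126, 96.3 and 112 in Zbtb18-ES, against 12.8, 21.4 and 39.7 in Foxj3-ES and 26.3, 26.4 and 20.1 in Control, a difference of 2.26 (SE 0.35, adjusted p = 0.025) that ended without any 1 Zbtb18-ES library or Foxj3-ES replicate 1 or 2 (highest adjusted p = 0.116). The 3 libraries of Zbtb18-ES lay above every other library in both genes. Ebf1, which encodes a factor of B cells and mesoderm, had 9.90, 20.8 and 17.998 in Zbtb18-ES, against 1.59, 3.40 and 0 in Foxj3-ES and 2.23, 2.56 and 2.67 in Control, and its adjusted p of 0.0483 was lost when any 1 library other than Control replicate 2 was left out (highest adjusted p = 0.187). Mmrn2, which encodes a matrix protein of endothelium, had 172, 109 and 114 in Zbtb18-ES, against 21.3, 32.8 and 48.9 in Foxj3-ES and 44.7, 67.4 and 45.02 in Control, with a difference of 1.95 (SE 0.31, adjusted p = 0.029) that was lost without any 1 Zbtb18-ES library or Foxj3-ES replicate 1 or 2 or Control replicate 3 (highest adjusted p = 0.112). Of 6 endothelial markers 4 were tested and none passed between the lines, with a summed UQRPKM of 511 to 684 in Zbtb18-ES, 396 to 487 in Foxj3-ES and 229.5 to 338 in Control that came mostly from Pecam1, while Emcn was listed at 0 in all 9 libraries. Of 7 macrophage markers 3 were tested and none passed, with a sum of 339.7 to 527 in Zbtb18-ES, 248 to 314 in Foxj3-ES and 92.0 to 140.1 in Control that came mostly from Cd68, and Emr1 and Csf1r were above 0 in Zbtb18-ES replicate 2 alone. The part of such cells in H2-Eb1 and Mmrn2 was not tested.

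Acox3, Pros1, Myof, Pmel and Serpinb6c were also higher through a rise in Zbtb18-ES. Acox3, an acyl-CoA oxidase gene of peroxisomes, had 122, 236 and 184 in Zbtb18-ES, against 54.8, 49.8 and 65.8 in Foxj3-ES and 76.4, 77.1 and 58.9 in Control, and its difference of 1.61 (SE 0.25, adjusted p = 0.0243) ended without Zbtb18-ES replicate 2 or 3 or Foxj3-ES replicate 1 or 2 (highest adjusted p = 0.116). Pros1, which encodes the anticoagulant protein S, had a difference of 1.16 (SE 0.19, adjusted p = 0.029) that ended without Zbtb18-ES replicate 2 or 3 or any 1 Foxj3-ES library or Control replicate 3 (highest adjusted p = 0.12). Myof, which encodes the membrane repair protein myoferlin, had a difference of 1.18 (SE 0.18, adjusted p = 0.0235) that ended without any 1 Zbtb18-ES library or Foxj3-ES replicate 1 or 2 (highest adjusted p = 0.116). Pmel, a melanosome gene that ESCs also express, had 95.6, 143 and 141 in Zbtb18-ES, against 49.95, 44.9 and 48.3 in Foxj3-ES and 47.6, 50.7 and 51.8 in Control, a difference of 1.36 (SE 0.19, adjusted p = 0.0198) that ended without Zbtb18-ES replicate 2 or 3 or Foxj3-ES replicate 1 or 2 (highest adjusted p = 0.109). Serpinb6c, of a family of protease inhibitors, had 527, 849 and 993 in Zbtb18-ES, against 159, 302 and 193 in Foxj3-ES and 200.04, 169 and 181 in Control, a difference of 1.86 (SE 0.27, adjusted p = 0.0212) that ended without Zbtb18-ES replicate 2 or 3 or Foxj3-ES replicate 1 or 3 (highest adjusted p = 0.091). In each of these 5 genes the Zbtb18-ES libraries lay above both other groups. Hopx, which encodes a homeodomain protein without DNA binding, had 108, 179.7 and 119 in Zbtb18-ES, against 44.3, 46.1 and 54.99 in Foxj3-ES and 36.2, 36.3 and 34.8 in Control, a difference of 1.44 (SE 0.22, adjusted p = 0.0235) that ended without Zbtb18-ES replicate 2 or 3 or Foxj3-ES replicate 1 or 2 (highest adjusted p = 0.0876). Pdzd2 had 17.1, 19.2 and 21.3 in Zbtb18-ES, against 3.78, 4.17 and 3.32 in Foxj3-ES and 7.39, 9.79 and 6.59 in Control, a difference of 2.09 (SE 0.31, adjusted p = 0.0227) that ended without Zbtb18-ES replicate 2 or 3 or Foxj3-ES replicate 1 or 2 (highest adjusted p = 0.116). In the fit without Control libraries, Ebf1, H2-Eb1 and Mmrn2 did not pass (adjusted p = 0.0962, 0.0528 and 0.0528).

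A second set was higher in Zbtb18-ES than in Foxj3-ES, with a fall in Foxj3-ES against Control. Jam2, a junctional adhesion gene (chromosome 16 of GRCm38, from 84774123 to 84826380), had 332, 363 and 314 in Zbtb18-ES, against 106, 124 and 119 in Foxj3-ES and 301, 268 and 307 in Control. Zbtb18-ES and Control stood close, Foxj3-ES stood below both, and the lines differed by 1.52 (SE 0.13, adjusted p = 0.00153), with Foxj3-ES minus Control at -1.32 (adjusted p = 0.000627). Snord73a, whose sequence is given above, had 92.4, 100.6 and 81.7 in Zbtb18-ES, was listed at 0 in all 3 Foxj3-ES libraries and had 27.5, 14.4 and 88.7 in Control. No fold change is given against 0, and its adjusted p was 0.00153. How few reads this call rests on is not known. Snora31, an RNA of the H/ACA class, had 86.3, 168 and 139 in Zbtb18-ES, against 47.6, 53.1 and 48.5 in Foxj3-ES and 221, 175 and 250.2 in Control, a difference of 1.33 (SE 0.24, adjusted p = 0.0414) that ended when any 1 library other than Zbtb18-ES replicate 1 or Control replicate 2 was left out (highest adjusted p = 0.173). Neither held for the class, since of 106 small nucleolar RNAs tested only these 2 were higher and none was lower. The tRNA genes n-Td6 and n-Td7 also stood at 0 throughout Foxj3-ES and held identical values in every library, so their reads cannot be told apart.

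Tmem40 had 166, 79.9 and 138 in Zbtb18-ES, against 24.5, 13.9 and 40.5 in Foxj3-ES and 81.4, 86.01 and 80.6 in Control, with Foxj3-ES below both other groups and a difference of 2.30 (SE 0.37, adjusted p = 0.0272) that ended without Zbtb18-ES replicate 1 or 3 or Foxj3-ES replicate 1 or 2 or Control replicate 3 (highest adjusted p = 0.12). Dusp27, of a family of phosphatases, had 52.3, 87.98 and 62.9 in Zbtb18-ES, against 11.3, 16.3 and 15.4 in Foxj3-ES and 37.4, 60.5 and 24.4 in Control, a difference of 2.15 (SE 0.34, adjusted p = 0.0272) that ended without Zbtb18-ES replicate 2 or 3 or any 1 Foxj3-ES library (highest adjusted p = 0.116). Notum, which encodes an enzyme that inactivates Wnt ligands, had 30.7, 35.4 and 41.6 in Zbtb18-ES, against 15.7, 15.04 and 14.4 in Foxj3-ES and 52.9, 55.4 and 59.7 in Control. Both lines stood below Control, Foxj3-ES further (-1.83, adjusted p = 0.00117), and the difference between the lines of 1.19 (SE 0.21, adjusted p = 0.0372) ended when any 1 library other than Control replicate 2 was left out (highest adjusted p = 0.178). Tcl1, a coactivator of Akt in ESCs and early embryos, had 545, 929.8 and 702 in Zbtb18-ES, against 276, 290.2 and 396 in Foxj3-ES and 763, 677 and 746 in Control, a difference of 1.16 (SE 0.20, adjusted p = 0.0356) that ended without Zbtb18-ES replicate 2 or 3 or Foxj3-ES replicate 1 or 2 or Control replicate 1 or 3 (highest adjusted p = 0.136). Lefty2, a Nodal antagonist, fell in both lines and further in Foxj3-ES. It had 106, 103 and 109.9 in Zbtb18-ES, against 57.7, 37.7 and 39.1 in Foxj3-ES and 252, 241 and 192 in Control, a difference of 1.25 (SE 0.19, adjusted p = 0.0252) that ended without any 1 Zbtb18-ES library or Foxj3-ES replicate 2 or 3 (highest adjusted p = 0.116). Without the Control libraries in the fit, Tmem40, Notum, Tcl1, Lefty2 and Snora31 did not pass (adjusted p = 0.0665, 0.102, 0.0819, 0.0583 and 0.0819).

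In 7 genes the lines left Control on opposite sides. Xaf1, an interferon-induced gene that promotes apoptosis (chromosome 11 of GRCm38, from 72301461 to 72313733), had 79.04, 93.1 and 116 in Zbtb18-ES, against 14.7, 16.7 and 25.8 in Foxj3-ES and 41.7, 34.4 and 51.9 in Control. Control lay between the lines without overlap, with 1.15 for Zbtb18-ES (adjusted p = 0.0237), -1.14 for Foxj3-ES (adjusted p = 0.0203) and 2.30 (SE 0.27, adjusted p = 0.00756) between them. Of 27 genes of antigen presentation and interferon response, 2 were higher (Xaf1 and H2-Eb1) and 1 lower (Igtp), with a median of -0.04 that was 0.15 at equal sums. Manba, which encodes lysosomal beta-mannosidase (chromosome 3 of GRCm38, from 135485611 to 135571404), had 664, 560.1 and 683 in Zbtb18-ES, against 254, 288 and 255 in Foxj3-ES and 431, 369 and 443 in Control, with no overlap and a difference of 1.25 (SE 0.13, adjusted p = 0.00436). Gm807, a predicted gene, differed by 2.27 (SE 0.23, adjusted p = 0.0025). Car4, a carbonic anhydrase gene (chromosome 11 of GRCm38, from 84957754 to 84966054), had 5.42, 5.40 and 0.78 in Zbtb18-ES, against 41.2, 47.6 and 46.5 in Foxj3-ES and 11.1, 20.6 and 10.5 in Control. Zbtb18-ES lay below and Foxj3-ES above every Control library, and the difference of -3.46 (SE 0.50, adjusted p = 0.0208) ended without Foxj3-ES replicate 1 or 2 (highest adjusted p = 0.0739). The other 3 are Dbi, Nifk and Tmem9 on chromosome 1, given below with their neighbours.

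Slc38a4, Lef1, Emx1 and Dmrtb1 were lower in Zbtb18-ES, and against Control only the fall in that line passed. Foxj3-ES minus Control was 0.36, -0.14, 0.83 and 0.22 in these genes (adjusted p = 0.127, 0.779, 0.194 and 0.678). Slc38a4, an imprinted gene of amino acid transport (chromosome 15 of GRCm38, from 96994816 to 97055956), had 168, 148 and 175 in Zbtb18-ES, against 527, 465 and 600.3 in Foxj3-ES and 368, 463 and 404 in Control, with Zbtb18-ES below all others and a difference of -1.69 (SE 0.15, adjusted p = 0.00153). Lef1, a DNA-binding effector of Wnt (chromosome 3 of GRCm38, from 131110297 to 131224357), had 7.13, 6.78 and 5.47 in Zbtb18-ES, against 24.1, 31.6 and 36.6 in Foxj3-ES and 31.9, 38.8 and 30.2 in Control. Its difference of -2.08 (SE 0.27, adjusted p = 0.013) ended without Zbtb18-ES replicate 3 or Foxj3-ES replicate 2 (highest adjusted p = 0.062). Emx1, a homeobox gene of the forebrain (chromosome 6 of GRCm38, from 85187931 to 85204463), had 0.824, 0.729 and 1.89 in Zbtb18-ES, against 15.9, 17.3 and 9.27 in Foxj3-ES and 8.76, 8.34 and 5.14 in Control, a difference of -2.81 (SE 0.40, adjusted p = 0.0198) that ended without Zbtb18-ES replicate 2 or Foxj3-ES replicate 1 or 2 (highest adjusted p = 0.073). Dmrtb1, which acts in spermatogonia, had 6.27, 4.27 and 3.33 in Zbtb18-ES, against 22.6, 31.5 and 25.5 in Foxj3-ES and 18.7, 26.4 and 22.8 in Control, a difference of -2.31 (SE 0.31, adjusted p = 0.0133) that ended without Zbtb18-ES replicate 3 or Foxj3-ES replicate 2 (highest adjusted p = 0.0642). In Lef1, Emx1 and Dmrtb1 no Zbtb18-ES library reached another group.

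Myl9, a light chain gene of contractile myosin, had 15.7, 12.4 and 18.96 in Zbtb18-ES, against 39.8, 74.2 and 87.2 in Foxj3-ES and 51.04, 48.4 and 59.6 in Control, a difference of -1.97 (SE 0.30, adjusted p = 0.0246) that ended without any 1 Zbtb18-ES library or Foxj3-ES replicate 2 or 3 (highest adjusted p = 0.0805). Jph3, which encodes a junction protein of neurons, had 2.23, 2.19 and 2.28 in Zbtb18-ES, against 14.01, 12.5 and 10.03 in Foxj3-ES and 17.2, 32.3 and 13.5 in Control, a difference of -2.02 (SE 0.37, adjusted p = 0.0429) that ended when any 1 library other than Control replicate 2 was left out (highest adjusted p = 0.146). Cdhr4 of the cadherin family had 2.72, 4.47 and 1.79 in Zbtb18-ES, against 13.96, 16.3 and 22.8 in Foxj3-ES and 6.02, 13.4 and 12.1 in Control, with 1 Control library close to Zbtb18-ES and a difference of -2.25 (SE 0.41, adjusted p = 0.042) that ended when any 1 library other than Control replicate 1 or Control replicate 2 was left out (highest adjusted p = 0.169). Fgf17 had 55.2, 37.1 and 38.7 in Zbtb18-ES, against 111, 141 and 126 in Foxj3-ES and 116, 225 and 156 in Control, a difference of -1.52 (SE 0.25, adjusted p = 0.029) that ended without Zbtb18-ES replicate 2 or 3 or any 1 Foxj3-ES library or Control replicate 3 (highest adjusted p = 0.132). Fabp5, which carries fatty acids and retinoic acid, had 82.2, 142 and 87.2 in Zbtb18-ES, against 279, 280.4 and 246 in Foxj3-ES and 163, 194 and 194 in Control, a difference of -1.41 (SE 0.20, adjusted p = 0.0217) that ended without Zbtb18-ES replicate 1 or 3 or Foxj3-ES replicate 1 or 2 (highest adjusted p = 0.104). Padi3, Thy1, Igtp and Tub had log2 differences of -1.41, -1.28, -1.58 and -1.37 (adjusted p = 0.029, 0.0372, 0.0414 and 0.0458), and these calls ended in 5, 8, 7 and 8 of the 9 fits with 1 library left out (highest adjusted p = 0.12, 0.0963, 0.169 and 0.178). In the fit without Control libraries the calls of Jph3, Cdhr4 and Myl9 ended (adjusted p = 0.067, 0.069 and 0.0625), as did those of Padi3, Thy1, Igtp and Tub (adjusted p = 0.0613, 0.0863, 0.0863 and 0.0943). At equal sums Thy1, Igtp and Tub did not pass either (adjusted p = 0.064, 0.0554 and 0.0602).

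A last set stood below Foxj3-ES, and against Control only the rise in Foxj3-ES passed. In Fgg, Car8 and Hpn, Zbtb18-ES also lay below Control without passing (-1.08, -0.44 and -0.39, adjusted p = 0.187, 0.345 and 0.17). In Adm it stood at 0.51 and in Rpl13 at -0.002. Adm, the gene of the vasodilator peptide adrenomedullin (chromosome 7 of GRCm38, from 110627657 to 110629820), had 116, 59.4 and 60.3 in Zbtb18-ES, against 233, 256 and 348 in Foxj3-ES and 46.02, 64.5 and 48.1 in Control. Foxj3-ES stood above every other library at 2.37 relative to Control (adjusted p = 0.00118), and its difference between the lines of -1.86 (SE 0.28, adjusted p = 0.0233) ended without Zbtb18-ES replicate 2 or 3 or any 1 Foxj3-ES library (highest adjusted p = 0.111). Car8, a carbonic anhydrase-related gene, had 8.27, 7.17 and 10.1 in Zbtb18-ES, against 34.5, 30.6 and 45.02 in Foxj3-ES and 10.6, 13.5 and 11.5 in Control, a difference of -1.98 (SE 0.28, adjusted p = 0.0198) that ended without Zbtb18-ES replicate 2 or 3 or Foxj3-ES replicate 1 or 2 (highest adjusted p = 0.0623). Fgg, a fibrinogen chain gene of the liver, had 0.572, 3.04 and 4.605 in Zbtb18-ES, against 16.6, 36.7 and 23.8 in Foxj3-ES and 4.98, 6.95 and 6.12 in Control, a difference of -2.95 (SE 0.50, adjusted p = 0.0309) that ended when any 1 library other than Control replicate 2 was left out (highest adjusted p = 0.103). Hpn, which encodes the membrane protease hepsin, had 83.4, 58.9 and 63.7 in Zbtb18-ES, against 174, 163 and 185 in Foxj3-ES and 95.2, 90.7 and 81.8 in Control, a difference of -1.34 (SE 0.17, adjusted p = 0.0119) that ended without Zbtb18-ES replicate 3 or Foxj3-ES replicate 1 or 2 (highest adjusted p = 0.062). Rpl13, a gene of the large ribosomal subunit, had 3504, 2879 and 2834 in Zbtb18-ES, against 7269.5, 6951 and 8012 in Foxj3-ES and 2230.3, 4239 and 3039.7 in Control, with Zbtb18-ES inside the range of Control and a difference of -1.27 (SE 0.22, adjusted p = 0.0317) that ended when any 1 library other than Control replicate 1 or Control replicate 2 was left out (highest adjusted p = 0.136). In all 5 genes the Foxj3-ES libraries lay above both other groups. In the fit without Control libraries Fgg did not pass (adjusted p = 0.0766).

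Of the 52 lower genes with a coordinate 15 lay on chromosome 1 (28.8%), which held 1138 of 19826 tested genes with a coordinate (5.74%), so the genome was divided into 5 Mb windows and the median of the genes of each window, relative to the mean of each gene, was compared over the libraries. Of 480 windows with at least 10 genes 4 differed between the lines (0.833%), all lower in Zbtb18-ES and all on chromosome 1, and 54 windows had an unadjusted p under 0.05. The window from 115000001 to 120000000 held 18 genes, with medians relative to Control of -1.01, -1.06 and -1.18 in Zbtb18-ES, against 0.01, -0.05 and -0.15 in Foxj3-ES and -0.11, -0.02 and 0.13 in Control. Only Zbtb18-ES stood apart, by -1.02 from Foxj3-ES (SE 0.08, adjusted p = 1.64e-05). The window from 120000001 to 125000000 held 10 genes, with -0.56, -0.58 and -0.90 in Zbtb18-ES, against 0.34, 0.77 and 0.61 in Foxj3-ES and 0.11, -0.02 and -0.09 in Control. Here the lines lay on opposite sides of Control and were -1.25 apart (SE 0.12, adjusted p = 5.3e-05).

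The window from 125000001 to 130000000 (21 genes) differed by -0.55 (SE 0.08, adjusted p = 0.00367) and that from 135000001 to 140000000 (46 genes) by -0.63 (SE 0.08, adjusted p = 0.00104). The window between them held 72 genes and did not pass (-0.33, adjusted p = 0.236), nor did the one after them (11 genes, -0.46, adjusted p = 0.146), and the one before them had under 10 genes. Against Control 8.96% of all windows passed in Zbtb18-ES and 2.08% in Foxj3-ES. Of the 4 windows, the first, second and last passed as lower in Zbtb18-ES (-1.09, -0.68 and -0.38, limma, adjusted p = 8.55e-06, 0.0127 and 0.028). In the one from 125000001 Zbtb18-ES stood at -0.21 without passing. Foxj3-ES was higher in the second (0.57, adjusted p = 0.0365). The 4 windows passed with each of the 9 libraries left out in turn, Zbtb18-ES replicate 3 among them, at equal sums of the libraries, and with GC content and length corrected for. At equal sums, where all genes moved up together by the shift given above, 74 windows passed, 70 of them higher and only these 4 lower. The exceptions were the third window in a fit without Control libraries (-0.46, adjusted p = 0.0583) and the second window where only mRNAs or genes with a UQRPKM of at least 5 entered, since too few of its genes were left.

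**Figure D3:**
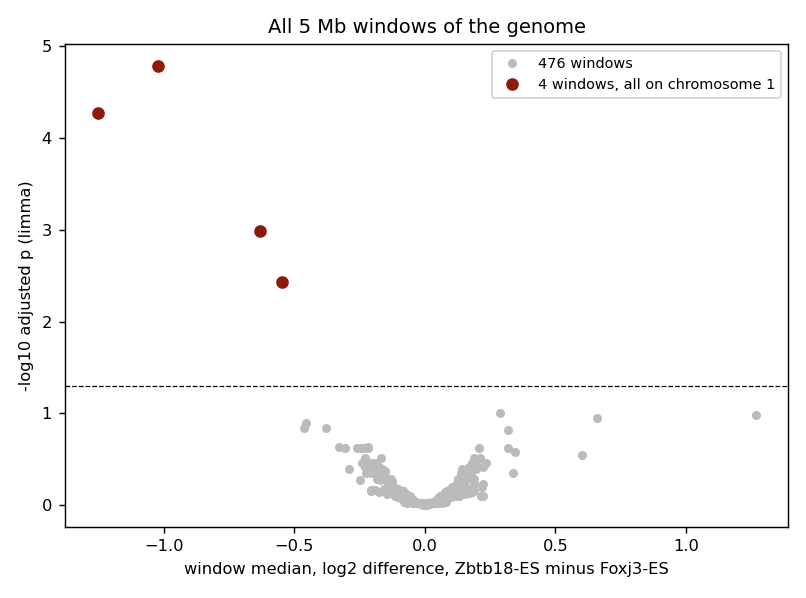
Each point is 1 of 480 windows of 5 Mb, with the log2 difference of its median gene (Zbtb18-ES minus Foxj3-ES) on the horizontal axis and -log10 of limma's adjusted p on the vertical axis; the dashed line is an adjusted p of 0.05. The 4 windows above the line lie at -1.25 to -0.55, and all are on chromosome 1.

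In the first 3 of these windows 44 of 49 tested genes stood below Foxj3-ES in Zbtb18-ES, with all 3 libraries below all 3 in 28 of them (57.1%), against 12.1% of all genes tested, and above in 0, against 9.29%. The median difference of the 49 genes was -0.77, against -0.04 in the 1089 other genes of the chromosome, and it was -0.46 for Zbtb18-ES minus Control and 0.21 for Foxj3-ES minus Control. The windows had been found by the same values, so these counts describe them. In the last window 39 of 46 genes stood lower. Zbtb18 itself lies on the same chromosome, beyond the last window.

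Dbi, which encodes an acyl-CoA-binding protein (chromosome 1 of GRCm38, from 120113280 to 120121096), had 1971, 1759 and 1451 in Zbtb18-ES, against 6072, 6345 and 5317 in Foxj3-ES and 2418, 2886 and 2823 in Control. Zbtb18-ES fell below Control (-0.66, adjusted p = 0.0243) and Foxj3-ES rose above it (1.13, adjusted p = 0.00224), a difference between the lines of -1.78 (SE 0.15, adjusted p = 0.00153). Tmem37, a relative of calcium channel subunits (chromosome 1 of GRCm38, from 120067377 to 120074069), had 74.1, 76.5 and 50.3 in Zbtb18-ES, against 282, 262 and 267 in Foxj3-ES and 170.01, 164 and 206 in Control, with no overlap of the 3 groups and a difference of -2.02 (SE 0.18, adjusted p = 0.00165). Nifk, whose product binds Ki-67 in nucleoli (chromosome 1 of GRCm38, from 118321843 to 118333831), had 429, 447 and 484 in Zbtb18-ES, against 1067, 986 and 1071 in Foxj3-ES and 775, 702 and 735 in Control, again with Control between the lines and a difference of -1.20 (SE 0.11, adjusted p = 0.00201). Tsn, which encodes the nucleic acid binding protein translin (chromosome 1 of GRCm38, from 118298514 to 118311461), had 345, 268 and 308 in Zbtb18-ES, against 728, 709 and 653 in Foxj3-ES and 771, 695 and 818 in Control, where Foxj3-ES and Control overlapped and the difference between the lines was -1.19 (SE 0.13, adjusted p = 0.00589). These 4 calls held in every fit with 1 library left out. Ddx18, an RNA helicase gene, and Mcm6, a subunit gene of the replicative helicase, differed by less than 2-fold, at -0.81 (SE 0.11, adjusted p = 0.0131) and -0.79 (SE 0.12, adjusted p = 0.0244). The call of Ddx18 ended without Zbtb18-ES replicate 3 or Foxj3-ES replicate 1 or 2 (highest adjusted p = 0.0666) and that of Mcm6 when any 1 library other than Control replicate 1 or Control replicate 2 was left out (highest adjusted p = 0.116).

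Insig2, which holds back sterol synthesis, had 95.3, 79.5 and 83.1 in Zbtb18-ES, against 178, 275 and 179.5 in Foxj3-ES and 95.4, 123 and 109.7 in Control. Here Foxj3-ES lay above both other groups, and the difference of -1.26 (SE 0.20, adjusted p = 0.0254) ended without Zbtb18-ES replicate 2 or 3 or Foxj3-ES replicate 1 or 2 or Control replicate 3 (highest adjusted p = 0.116). Epb4.1l5 of the band 4.1 family had 68.3, 37.7 and 54.4 in Zbtb18-ES, against 173, 134 and 137 in Foxj3-ES and 96.9, 123 and 84.5 in Control, a difference of -1.48 (SE 0.24, adjusted p = 0.029) that ended without Zbtb18-ES replicate 2 or 3 or any 1 Foxj3-ES library (highest adjusted p = 0.116). Steap3, a ferrireductase gene, had 27.2, 50.003 and 25.9 in Zbtb18-ES, against 118, 88.7 and 165 in Foxj3-ES and 191, 248 and 141 in Control, a difference of -1.84 (SE 0.32, adjusted p = 0.0335) that ended when any 1 library other than Zbtb18-ES replicate 2 or Control replicate 2 was left out (highest adjusted p = 0.139). Ralb, a small GTPase gene, and Tmem177 differed by -1.08 and -1.08 (adjusted p = 0.0296 and 0.029), and these calls ended in 7 and 8 of the 9 fits with 1 library left out (highest adjusted p = 0.136 and 0.131). Among the genes of the stretch that lay lower without passing were the homeobox gene En1, with a difference of -2.29 (SE 0.49, adjusted p = 0.0696), Gli2, a Hedgehog effector, with -1.25 (SE 0.27, adjusted p = 0.0735), Inhbb, which encodes an activin subunit, with -1.24 (SE 0.24, adjusted p = 0.0568), and the naive pluripotency factor gene Tfcp2l1 with -0.54 (SE 0.21, adjusted p = 0.236). Gli2 had 53.6, 79.6 and 71.8 in Zbtb18-ES, against 116, 187 and 194 in Foxj3-ES and 247, 431 and 252 in Control, so both lines lay below Control.

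In the window from 135000001 to 140000000, Tmem9, a gene of lysosomal membranes (chromosome 1 of GRCm38, from 136008219 to 136035030), had 331, 338 and 299.5 in Zbtb18-ES, against 749, 796 and 1056 in Foxj3-ES and 530.3, 618 and 471 in Control, with Control between the lines and a difference of -1.41 (SE 0.16, adjusted p = 0.00649). Kif14, a kinesin gene of cell division, had 87.1, 102 and 89.3 in Zbtb18-ES, against 229, 225 and 217 in Foxj3-ES and 157, 189 and 141 in Control, a difference of -1.26 (SE 0.15, adjusted p = 0.00775) that ended without Foxj3-ES replicate 2 (adjusted p = 0.0501). Kif21b, a kinesin gene of neurons, had 76.02, 90.9 and 88.1 in Zbtb18-ES, against 220.4, 299.8 and 256 in Foxj3-ES and 160.3, 230.5 and 134 in Control, a difference of -1.59 (SE 0.21, adjusted p = 0.0131) that ended without Zbtb18-ES replicate 3 or Foxj3-ES replicate 2 (highest adjusted p = 0.0642). Neither gene overlapped between the lines. Timm17a, which acts in mitochondrial protein import, had 1151, 946 and 1170.5 in Zbtb18-ES, against 1762, 1810.4 and 2092 in Foxj3-ES and 989, 936 and 1136 in Control, where Foxj3-ES lay above both other groups by less than 2-fold. Its difference of -0.80 (SE 0.14, adjusted p = 0.0356) ended when any 1 library other than Control replicate 2 was left out (highest adjusted p = 0.116). 5730559C18Rik, Zbtb41, Camsap2 and Ddx59 of this window also passed, with log2 differences of -1.59, -1.46, -0.86 and -0.83 (adjusted p = 0.0233, 0.0327, 0.0372 and 0.0446), and these calls ended in 4, 7, 8 and 7 of the 9 fits with 1 library left out. Zbtb41, Camsap2 and Ddx59 also failed without the Control libraries (adjusted p = 0.0665, 0.0819 and 0.0863) and at equal sums (adjusted p = 0.0523, 0.0805 and 0.0708). In the fit without Control libraries Epb4.1l5, Steap3, Tmem177 and Timm17a did not pass (adjusted p = 0.0511, 0.0659, 0.0665 and 0.0625), and at equal sums Mcm6 and Timm17a did not (adjusted p = 0.0502 and 0.081).

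**Figure D4:**
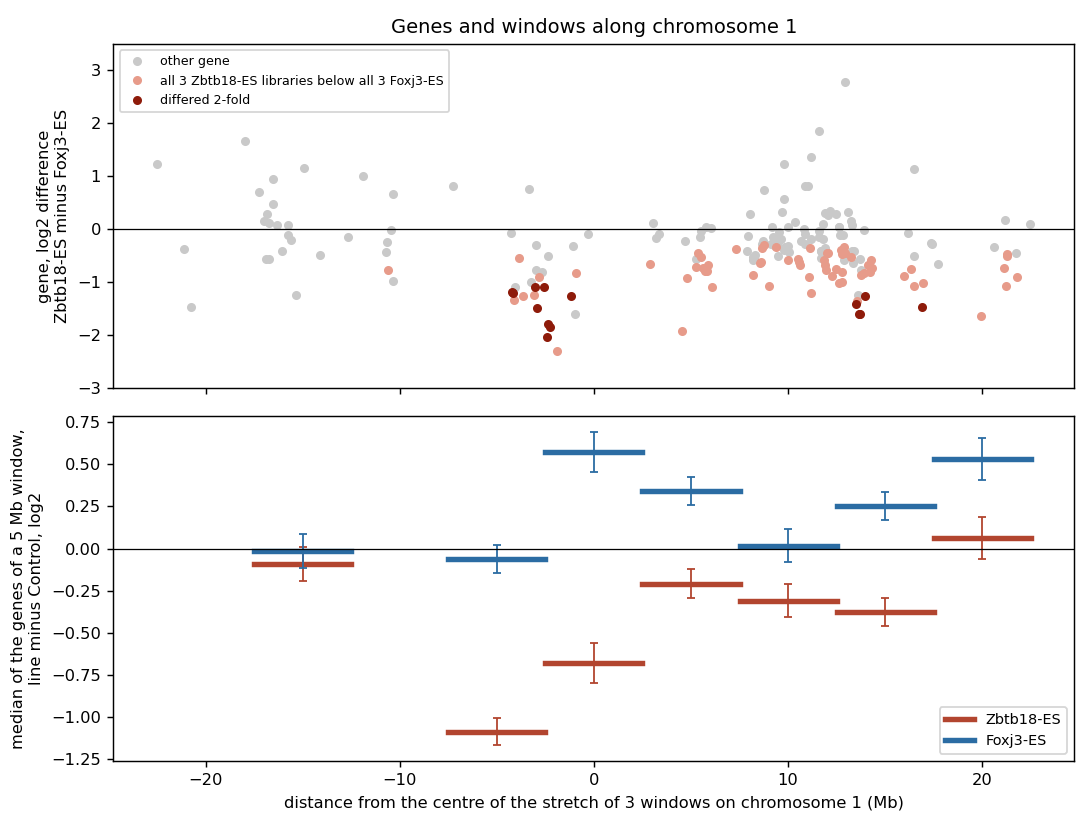
The upper panel gives the log2 difference (Zbtb18-ES minus Foxj3-ES) of each gene by its distance in Mb from the centre of the stretch of 3 windows on chromosome 1, with genes whose 3 Zbtb18-ES libraries lie below all 3 Foxj3-ES libraries in light red and those that differed 2-fold in dark red. The lower panel gives the median of each 5 Mb window with at least 10 genes relative to Control, with its standard error, in Zbtb18-ES (red) and Foxj3-ES (blue); the lines meet at -15 Mb, and Zbtb18-ES is lowest at -5 Mb (-1.09) while Foxj3-ES is at -0.06 there.

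In 30 gene lists members were counted by the adjusted p alone, at which 0.328% of all genes were higher and 0.359% lower. In 7 lists no member passed, and in no list did more than 3 pass in 1 direction. Genes of the oocyte and the 2-cell stage had the highest median, 1.03 over 23 genes, against -0.02 over all genes tested. Against Control the median of this list was 0.19 in Zbtb18-ES and -0.55 in Foxj3-ES, so Foxj3-ES lay further from Control. Between the lines 3 of the 23 genes were higher and none lower. In 12 of the 23, near-identical copies counted singly, all Zbtb18-ES libraries lay above all Foxj3-ES libraries, against 9.29% of all genes. Pramef12, of the Prame family, had 328, 371 and 392 in Zbtb18-ES, against 187, 176 and 169.9 in Foxj3-ES and 172, 149.7 and 154 in Control, a difference of 1.03 (SE 0.13, adjusted p = 0.0119) that ended without Zbtb18-ES replicate 3 or Foxj3-ES replicate 2 (highest adjusted p = 0.0657). Ooep, a maternal gene of the egg, had 2076, 1433 and 1823 in Zbtb18-ES, against 845, 673 and 772 in Foxj3-ES and 835, 517 and 820.3 in Control, a difference of 1.21 (SE 0.21, adjusted p = 0.0339) that ended when any 1 library other than Control replicate 1 or Control replicate 2 was left out (highest adjusted p = 0.136). Tcl1 is the third. Zscan4e, of the cluster that marks 2-cell-like cells, had 4.28, 7.44 and 13.6 in Zbtb18-ES, against 0, 0 and 1.70 in Foxj3-ES and 11.4, 3.61 and 6.68 in Control and a difference of 2.64 (SE 0.58, adjusted p = 0.0733), so it did not pass, nor did Zscan4a, Zscan4b, Zscan4c, Zscan4d and Zscan4f, near-identical copies whose reads may be shared.

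The 22 neuronal genes and the 11 genes of the formative and primed epiblast had the lowest medians, both -0.66 on the log2 scale. With quantile normalization the epiblast list was the lower of them (-0.68, against -0.61). Of the 22 neuronal genes 2 passed, and in 10 all Zbtb18-ES libraries lay below all Foxj3-ES libraries, against 12.1% of all genes. Thy1 was among those that were lower, and none was higher. Tubb3 had 146, 283 and 169.8 in Zbtb18-ES, against 347, 354 and 405 in Foxj3-ES and 391, 653 and 445 in Control, without overlap of the lines and with a difference of -0.94 (SE 0.25, adjusted p = 0.121) that did not pass. Dcx was listed at 0 in all 9 libraries, and the sum of the 6 neuronal markers was 149.8 to 286 in Zbtb18-ES, 361 to 408 in Foxj3-ES and 399 to 663 in Control, almost all from Tubb3. Of the epiblast genes 1 was lower (Lef1) and 7 lay below without overlap, against the same 12.1%. The 17 genes of neural progenitors had a median of -0.36, with 1 lower (Emx1). Of 18 naive pluripotency genes (median 0.37) 1 was higher (Tcl1). Of 15 core pluripotency genes 1 was lower (Lin28a), with 441, 334 and 459.9 in Zbtb18-ES, against 691, 709 and 763 in Foxj3-ES and 1121, 1377 and 1064 in Control, a fall in both lines that went further in Zbtb18-ES. Its difference of -0.82 (SE 0.16, adjusted p = 0.0497) ended when any 1 library other than Control replicate 2 was left out (highest adjusted p = 0.127), without the Control libraries (adjusted p = 0.0693) and at equal sums (adjusted p = 0.0739). Pou5f1, which encodes Oct4, had 17975, 16904 and 20887 in Zbtb18-ES, against 17825, 17716 and 18268 in Foxj3-ES and 13658, 14115 and 13277 in Control, a difference of 0.05 (SE 0.16, adjusted p = 0.928).

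Of 14 Nodal genes 1 was higher (Lefty2), and of 33 Wnt genes 1 was higher (Notum) and 2 were lower (Lef1 and Sfrp5). Sfrp5, a Wnt antagonist gene, had a difference of -1.85 (SE 0.30, adjusted p = 0.029) that ended without Zbtb18-ES replicate 1 or 3 or any 1 Foxj3-ES library (highest adjusted p = 0.12). Of 20 genes of FGF-ERK signalling Fgf17 was lower, of 19 retinoid genes Fabp5 was lower, and none of 16 BMP genes passed. Bmp4 differed by 1.24 (SE 0.46, adjusted p = 0.224) with the spread within Zbtb18-ES given above. Of 14 mesoderm genes (median 0.50) Ebf1 and Hopx were higher, of 17 endoderm genes Hnf4a was higher and Fgg lower, and none of 11 trophoblast genes passed. Of 20 epithelial and mesothelial genes Msln and Emp1 were higher. Emp1, a membrane protein gene of epithelia, had a difference of 1.54 (SE 0.27, adjusted p = 0.0356) that ended when any 1 library other than Foxj3-ES replicate 3 or Control replicate 2 was left out (highest adjusted p = 0.129) and without the Control libraries (adjusted p = 0.0819). In 12 of 20 contractile genes (median -0.39) the lines did not overlap with Zbtb18-ES below, against 12.1% of all genes. Myl9 and Fblim1 were lower. Fblim1, whose product binds filamin, had a difference of -1.22 (SE 0.18, adjusted p = 0.0231) that ended without Zbtb18-ES replicate 2 or 3 or Foxj3-ES replicate 2 or 3 (highest adjusted p = 0.091).

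Among housekeeping and chromatin lists, 2 of 88 cytosolic ribosomal protein genes were lower (Rpl13 and Rpl37), with a median of -0.35 that was -0.16 at equal sums, and in 39 all Zbtb18-ES libraries lay below all Foxj3-ES libraries, against 12.1% of all genes. Rpl37 had a difference of -0.85 (SE 0.16, adjusted p = 0.0429) that ended when any 1 library other than Control replicate 2 was left out (highest adjusted p = 0.178), without the Control libraries (adjusted p = 0.0643) and at equal sums (adjusted p = 0.0561). No histone gene passed of 69 (median -0.46) and no DNA methylation enzyme gene of 13 (-0.10). Of 30 imprinted genes (median -0.54) only Slc38a4 passed and 11 lay below without overlap, against 12.1% of all genes. Meg3, Rian and Mirg, with the wide spread inside Zbtb18-ES given above, did not pass. Of 22 sterol and lipid genes (-0.30) Insig2 was lower and 11 lay below without overlap, against the same 12.1%. Of 19 genes of the p53 and stress response (-0.52) Adm was lower. At equal sums of the libraries the medians of 10 lists changed sign, among them Wnt signalling (0.03), core pluripotency (0.12) and the small nucleolar RNAs (-0.07, and 0.11 at equal sums), all between -0.17 and -0.01 as deposited.

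None of the 17 candidate genes of the study passed between the lines, and the median difference was -0.17, or 0.02 at equal sums. In 5 of them (Olig1, Olig2, Shank1, Smarcd3 and Zic5) all Zbtb18-ES libraries lay below all Foxj3-ES libraries, and in 1 (Id2) above, against 12.1% and 9.29% of all genes. Against Control 16 of them were lower and 1 higher in each line. The study had chosen them on these samples, so that count is not independent evidence. Olig2, a factor gene of the oligodendrocyte lineage, lay furthest apart, with 48.8, 63.8 and 37.4 in Zbtb18-ES, against 111, 88.4 and 99.02 in Foxj3-ES and 189, 271 and 227 in Control. The lines did not overlap, but the difference of -1.004 (SE 0.22, adjusted p = 0.0733) did not pass. Olig1 had 77.9, 77.2 and 69.6 in Zbtb18-ES, against 90.3, 117 and 83.6 in Foxj3-ES and 235, 317 and 229 in Control, a difference of -0.35 (SE 0.18, adjusted p = 0.38), and Zic5 had 15.6, 16.5 and 11.4 in Zbtb18-ES, against 16.8, 16.99 and 23.03 in Foxj3-ES and 46.9, 42.1 and 48.7 in Control, a difference of -0.36 (SE 0.25, adjusted p = 0.521). Nes, which encodes the progenitor marker nestin, had 13.7, 15.5 and 19.6 in Zbtb18-ES, against 13.2, 10.5 and 13.5 in Foxj3-ES and 25.02, 30.8 and 15.3 in Control and differed by 0.36 (SE 0.32, adjusted p = 0.628).

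**Figure D5:**
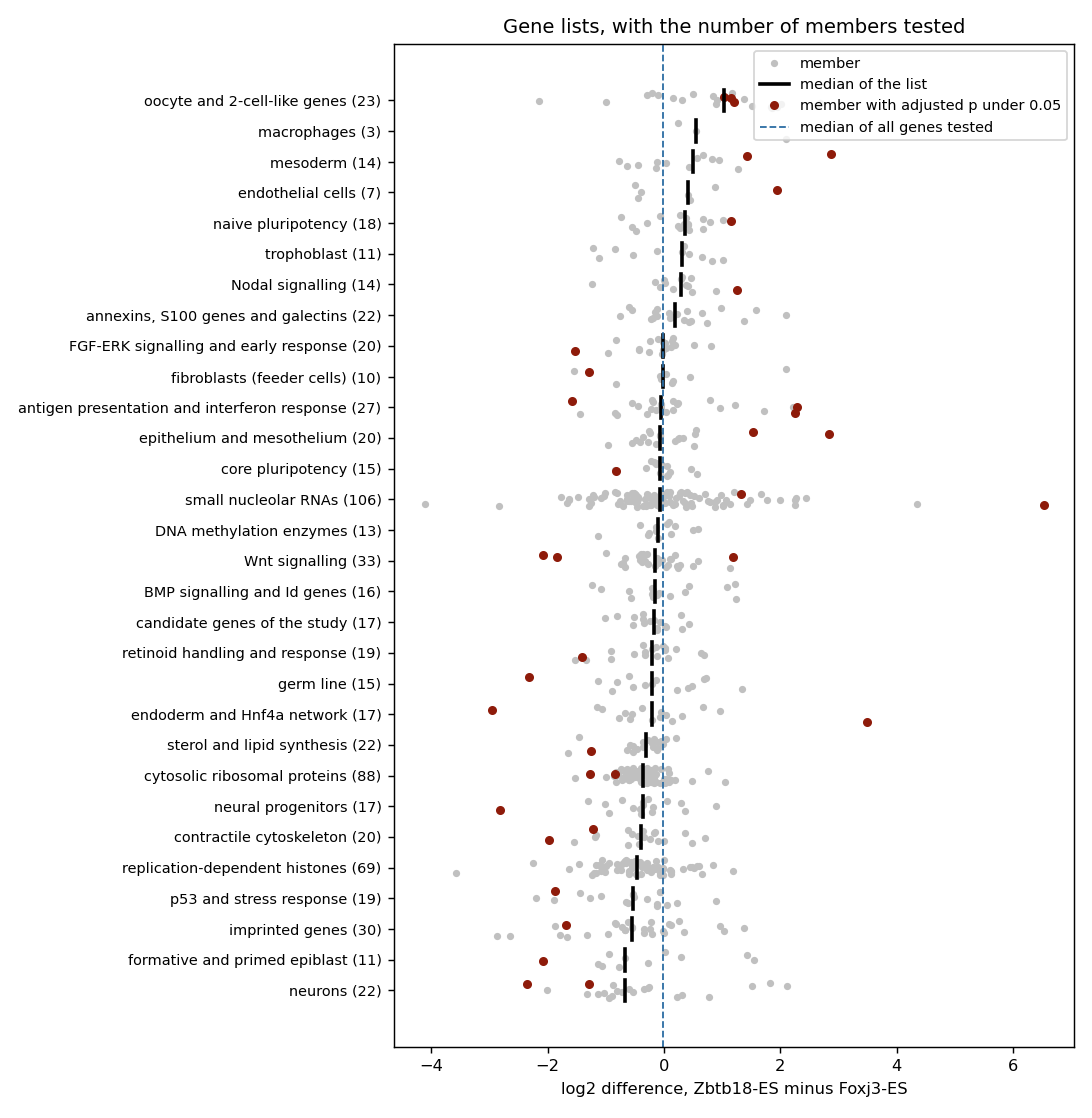
Each row is 1 of 30 gene lists, ordered by its median, with the number of members tested in brackets; grey points are members and dark red points members with an adjusted p under 0.05, placed by their log2 difference (Zbtb18-ES minus Foxj3-ES), black bars are medians of the lists, and the dashed line is the median of all genes tested (-0.02). The medians run from -0.66 for neurons to 1.03 for oocyte and 2-cell-like genes, and no list has more than 3 passing members in 1 direction.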

How the data were processed

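RNA of 9 libraries, 3 each of Zbtb18-ES, Foxj3-ES and Control, was sequenced from total RNA on the Ion Proton. The deposited values are RPKM that the authors divided by an upper quartile per library (UQRPKM), in a table of 44788 genes with 1 column per library and no counts. The submitters' processing notes name mm10 and DESeq without versions, and for the aligner, the counting and the annotation the sources used here give nothing. Groups came from the sample titles, and every column of values was used.

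Values were tested on log2(UQRPKM + 1) with limma 3.58.1 (R 4.3.3) with the spread modelled as a trend over expression, in 22268 genes with a value of 1 or more in at least 3 libraries and all 9 libraries in the fit. P-values were adjusted by Benjamini and Hochberg over all genes tested, and a called gene had a 2-fold difference with an adjusted p under 0.05. The median of the genes of each 5 Mb window with at least 10 genes was tested the same way, without the trend. Symbols were matched to RefSeq on GRCm38.p6, 32046 directly and 1709 through an older symbol. The fits were run on simulated data with independent noise in each gene and no GC trend. That run cannot speak of trends shared by the genes of a library or of a window. Python 3.11.15 was used for the rest.

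The comparison, the gene lists and the rule for named genes were chosen with earlier results of these data known. Named genes were the 12 higher and 12 lower called genes with the largest differences, without overlap of the lines and with the higher line averaging at least 10, leaving out predicted genes, unnamed clones, pseudogenes and microRNAs, the genes and markers of the study, up to 4 passing members per list, and up to 8 genes per stretch of windows. Other genes were named after their values were seen: Fam25c, Gm807, Manba, Gpa33, Jam2, Acox3, Pros1, Myof, Pmel, Serpinb6c, Hpn, Padi3, Tub, Ralb, Steap3, Tmem177, En1, Gli2, Inhbb and Tfcp2l1, the imprinted and Y-linked genes other than Slc38a4, Nefm, the Zscan4 genes, n-Td6 and n-Td7. Alternatives were another pseudocount, filter, scaling, spread, set of libraries, gene type, window or block, GC content and length corrected for, and each library left out. The read depth is not known, so no counting interval is given. The result of 1 gene that the rule for named genes chose is not reported here.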

Additional observations from a re-analysis of the deposited data

Results flagged for a closer look

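In 7 genes every library of Zbtb18-ES moved to one side of the Control mean and every library of Foxj3-ES to the other, with both departures past limma's adjusted p threshold. The differences between the lines on the log2 scale were 2.30 for Xaf1, 2.27 for Gm807, 1.25 for Manba, -1.20 for Nifk, -1.41 for Tmem9, -1.78 for Dbi and -3.46 for Car4. Of these, 3 lie in the windows of chromosome 1 that differed between the lines (Nifk, Tmem9 and Dbi). The same was seen for the median of the 10 genes in the window of 5 Mb from 120000001 on chromosome 1, at -1.25. Both lines were set against the same Control libraries, so the opposite departures share them.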

How the results depend on the processing

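The count of 121 genes was 75 with no filter, 211 with GC content and length corrected for, 223 among genes typed as mRNA only, and 22 to 185 with 1 library left out. At equal sums of the libraries the split of 65 higher and 56 lower became 117 and 36. Correlations of the deviations of same-numbered Zbtb18-ES and Foxj3-ES libraries were 0.01, -0.01 and -0.00, so the numbers were not read as pairs, and with a replicate block the count was 57. The count of 4 windows was 8 with the mean of the genes of a window, 74 at equal sums, 11 after the GC content and length correction, and 4 to 7 with 1 library left out. With 1 library left out, Foxj3 ranged over -0.85 to -0.57 and Zbtb18 over 0.21 to 1.14. The Pou5f1 difference ran between -0.041 and 0.11 with 1 library left out, and changed sign without Zbtb18-ES replicate 3. Of 909 values of other results with 1 library left out, 304 lost and 2 gained the threshold, and of 1298 under other settings 143 lost and 13 gained it. These totals include genes that had not passed and could not lose it, so they understate how often a passing call was lost. Of 73 genes looked up that passed, 35 no longer did with a replicate block, 27 with no filter and 26 with only the line libraries in the fit. With no trend 24 were lost, and 10 at equal sums. More were lost in some fits with 1 library left out: 55 without Foxj3-ES replicate 2 and 53 without Zbtb18-ES replicate 3. Without Control replicate 2 the number lost was 0. The causes were not tested. With 3 libraries per group and no read counts, small differences of low genes could not be seen.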
